A study of Homo sapiens with 2 samples.

Results

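The 39 HOX genes of the human genome were described in TCam-2 cells, a human testicular tumour line of the seminoma type, that had been transduced with the RNA helicase gene DDX53 and are labelled as overexpressing it. The HOX genes were taken by name, as every protein-coding gene whose symbol is HOX, a cluster letter from A to D and a number, and all 39 were present among the 62700 genes of the gene table. They lie in 4 clusters, with 11 genes in HOXA, 10 in HOXB, 9 in HOXC and 9 in HOXD. Polyadenylated RNA was sequenced in strand-specific libraries from 1 group, TCam-2 cells transduced with a FLAG-tagged DDX53 construct, in 2 replicates. The study set these cells against TCam-2 cells with a FLAG-tagged GFP and against untransduced cells to find genes whose expression or splicing changes. Those control libraries were not analysed here, so the values below are levels in DDX53-transduced cells and not effects of DDX53. The vector, the promoter of the construct and whether the cells are 1 clone are not given in the sources used here, nor is whether the replicates came from separate cultures, so the spread between them may be technical.

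HOX genes encode homeodomain transcription factors that give cells their position along the head-to-tail axis of the embryo. Within a cluster the genes stand in the order in which they are switched on: low numbers are used early and towards the head, high numbers late and towards the tail. Genes with the same number in different clusters are copies of 1 ancestral gene and form a paralog group. Retinoic acid opens the clusters from the low-numbered end, Trithorax-group proteins keep the genes active and Polycomb-group proteins keep them silent. Primordial germ cells, which seminoma cells resemble, are known to hold HOX genes low.

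Depth was 24137664 and 22198929 reads in genes (replicates 1 and 2). A gene without a read could still hold up to 3, which is 0.124 and 0.135 counts per 1000000 reads (CPM). Intervals and this limit cover counting error only. DDX53 itself had 146 and 147 reads (6.05 and 6.62 CPM), where the median protein-coding gene had 6.79 and 6.76 CPM. Without a control library these values do not show whether DDX53 was raised. All 9 seminoma-like markers were detected, among them POU5F1, a pluripotency factor, at 1891 and 1921 CPM and SOX17, a germ cell specifier, at 143 and 146 CPM. Together these 9 markers summed to 5604 and 5590 CPM. Among 5 embryonal carcinoma-like markers 4 were detected, with a sum of 262 and 227.04 CPM. TDGF1 (127 and 120 CPM) and DNMT3B (124 and 98.4 CPM) made up most of this sum, GDF3 was at 7.46 and 6.40 CPM, and SOX2, which sets embryonal carcinoma apart from seminoma, had 24 reads in each library. Of 8 fibroblast-like markers 5 were detected, with a sum of 508 and 492 CPM. COL1A2 made up most of it at 455 and 424 CPM, THY1 was at 24.3 and 28.0 CPM, COL1A1, COL3A1 and LUM were between 8.78 and 14.6 CPM, and DCN had 1 read in each library. The part of such other cells in the HOX values was not tested, and in bulk RNA fewer expressing cells and less RNA per cell cannot be told apart.

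The HOX genes as a family were low. Detection was set at 1 CPM or more in each library. By this rule 10 of 39 HOX genes (25.6%) were detected, against 61.7% of 19831 protein-coding genes. Among them were HOXA7, HOXA9, HOXB7, HOXB13, HOXC6, HOXC9, HOXC10, HOXC13 and HOXD9. Per kilobase of exons the median HOX gene was at 0.102 in replicate 1 and 0.0923 in replicate 2 (reads per kilobase per 1000000 reads, RPKM), and the median protein-coding gene at 1.30 and 1.29 RPKM. Reads in all HOX genes came to 1579 in replicate 1 and 1458 in replicate 2 (65.4 and 65.7 CPM). HOXA13 and HOXC4 reached 1 CPM in replicate 2 only, which 1.57% of protein-coding genes did in 1 library. The other 27 genes stayed below 1 CPM in both libraries. Of these, 16 had reads in both libraries, 2 had reads in 1 library (HOXA11 with 4 in replicate 1, HOXB9 with 3 in replicate 2) and 9 had none.

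The 9 genes without a read were HOXA2, HOXA6, HOXB1, HOXB5, HOXB6, HOXB8, HOXC5, HOXD11 and HOXD12. They are 23.1% of the HOX genes, and 17.7% of protein-coding genes had no read in either library. At a threshold of 0.1 CPM in both libraries 23 HOX genes passed (72.1% of protein-coding genes did), and at 5 CPM 3 passed (51.8% of protein-coding genes). HOXA7 and HOXC13 were among those 3.

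**Figure D1:**
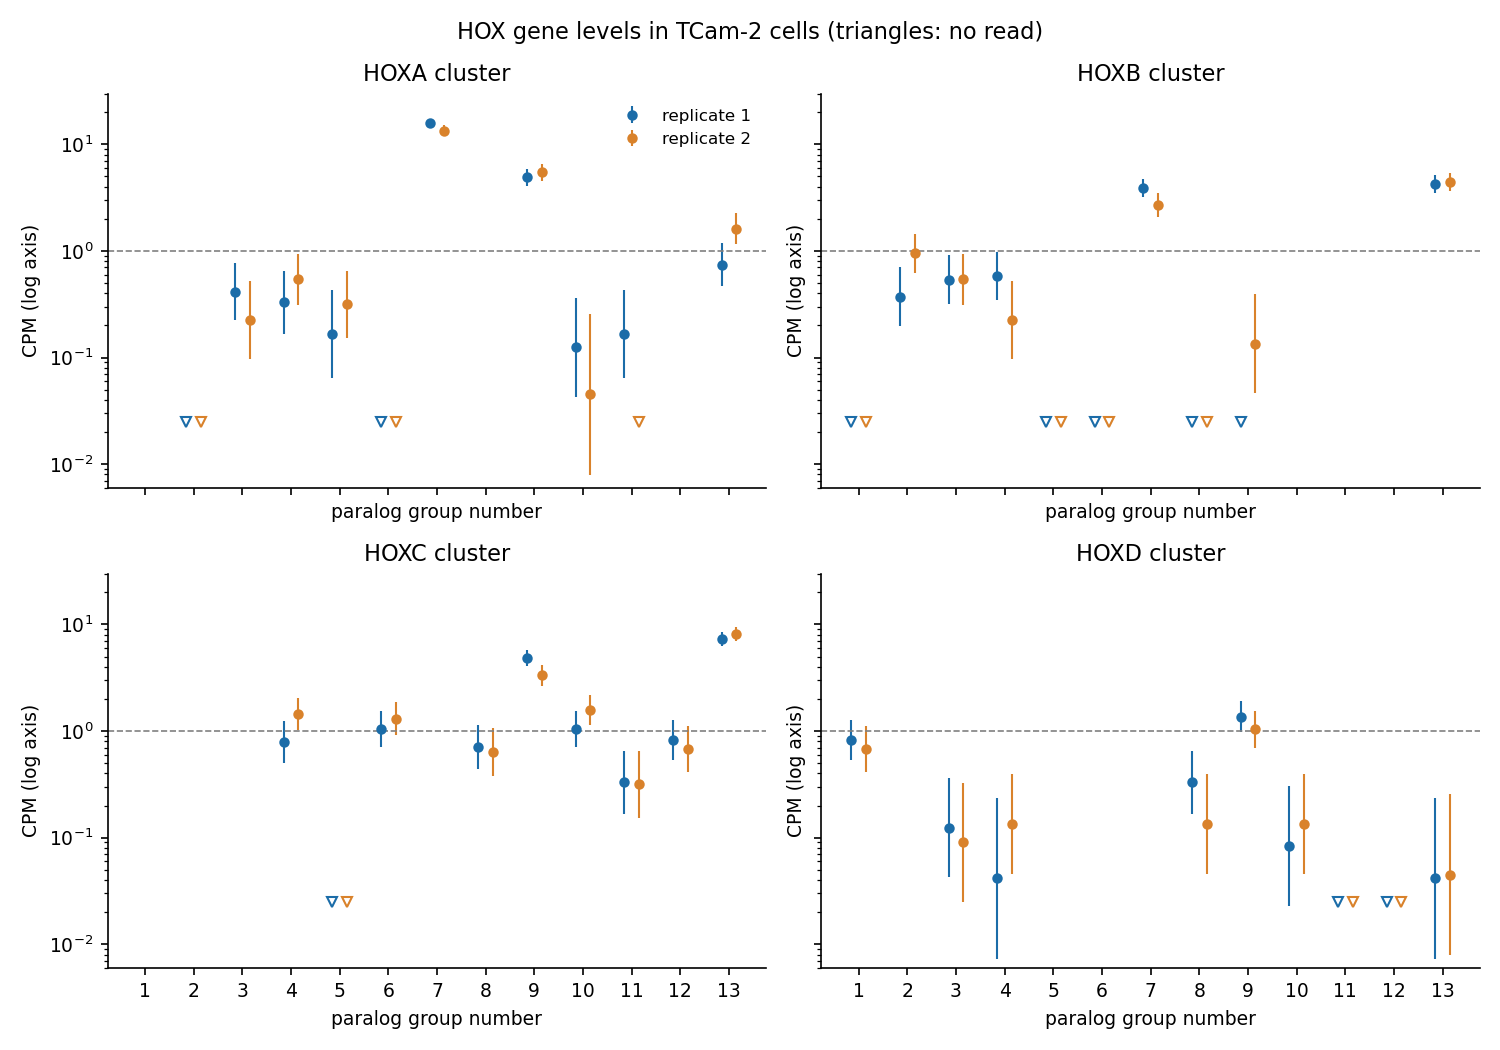
CPM of the HOX genes described here (vertical, log axis) by paralog group number (horizontal), with 1 panel per cluster. Points are the 2 libraries, bars are 95% Wilson intervals, open triangles are genes without a read and the dashed line is 1 CPM; HOXA7 stands highest of the genes shown, at 15.7 and 13.5 CPM.

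The HOXA cluster lies on the minus strand of chromosome 7 (coordinates here and below are of GRCh38) and spans 107 kb. HOXA7 (ENSG00000122592.8; 27153716 to 27157936), a gene of the trunk region of the axis, had 380 reads in replicate 1 and 299 in replicate 2. This was 15.7 CPM (95% Wilson interval, 14.2 to 17.4) and 13.5 CPM (12.03 to 15.1), and the intervals overlapped. HOXA7 alone held 24.1% and 20.5% of all HOX reads (95% Wilson intervals 22 to 26.2 and 18.5 to 22.7).

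HOXA9 (ENSG00000078399.19), a gene of the posterior trunk and limb that is also known from leukaemia, was also detected. It had 118 and 121 reads, 4.89 CPM (4.08 to 5.85) and 5.45 CPM (4.56 to 6.51), with overlapping intervals. HOXA13, the last gene of the cluster and one that shapes the hands, feet and genital tract, had 18 reads (0.746 CPM, 0.472 to 1.18) in replicate 1 and 36 reads (1.62 CPM, 1.17 to 2.24) in replicate 2. HOXA13 was thus above the threshold in 1 library and below it in the other, and its intervals overlapped narrowly. Other HOXA genes stood far lower: HOXA3, HOXA4, HOXA5 and HOXA10 had 1 to 12 reads per library, HOXA11 had 4 and 0, and HOXA2 and HOXA6 had none.

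Reads therefore alternated with silence over a few kilobases of HOXA. HOXA7 lay 3.11 kb from HOXA6, which had no read, and 4.50 kb from HOXA9, which was detected. The bases around the start sites of such neighbours are shown to set a used gene beside an unused one. Each window covers 250 bases before and 50 bases after the RefSeq start (GRCh38.p14), on the strand of the gene, with the dinucleotide CG in capitals. The RefSeq table held windows for 20 of the 39 HOX genes, 27 windows in all, and of the detected genes only HOXA7 and HOXA9 had one. The windows are HOXA2 at chr7:27102634-27102933, HOXA6 at chr7:27147725-27148024, HOXA7 at chr7:27156626-27156925 and HOXA9 at chr7:27165488-27165787, all on the minus strand.
HOXA2: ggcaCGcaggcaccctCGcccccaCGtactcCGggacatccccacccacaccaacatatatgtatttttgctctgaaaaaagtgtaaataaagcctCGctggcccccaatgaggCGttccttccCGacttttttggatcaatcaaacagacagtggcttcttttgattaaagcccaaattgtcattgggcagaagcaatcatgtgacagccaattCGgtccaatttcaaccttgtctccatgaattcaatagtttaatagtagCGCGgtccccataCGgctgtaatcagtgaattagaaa
HOXA6: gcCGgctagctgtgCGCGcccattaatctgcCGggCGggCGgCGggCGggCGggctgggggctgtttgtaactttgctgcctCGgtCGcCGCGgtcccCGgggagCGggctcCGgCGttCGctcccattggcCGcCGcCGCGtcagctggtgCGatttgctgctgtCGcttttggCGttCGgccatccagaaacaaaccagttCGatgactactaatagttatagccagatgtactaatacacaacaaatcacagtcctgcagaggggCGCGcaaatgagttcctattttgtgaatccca
HOXA7: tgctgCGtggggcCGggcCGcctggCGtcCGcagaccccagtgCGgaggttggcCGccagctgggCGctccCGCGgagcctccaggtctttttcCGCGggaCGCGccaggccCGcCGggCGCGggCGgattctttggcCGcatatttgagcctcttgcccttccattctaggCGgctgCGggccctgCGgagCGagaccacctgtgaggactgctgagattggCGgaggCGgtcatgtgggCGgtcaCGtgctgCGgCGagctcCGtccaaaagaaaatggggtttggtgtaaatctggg
HOXA9: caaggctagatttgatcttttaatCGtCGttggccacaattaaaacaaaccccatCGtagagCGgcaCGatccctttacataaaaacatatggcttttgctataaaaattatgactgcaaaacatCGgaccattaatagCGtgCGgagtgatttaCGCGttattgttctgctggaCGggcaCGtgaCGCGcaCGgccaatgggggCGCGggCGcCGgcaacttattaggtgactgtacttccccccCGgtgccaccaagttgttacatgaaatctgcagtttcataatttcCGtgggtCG

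CG dinucleotides mark promoters that can be held by Polycomb proteins or kept open without methylation. The HOXA7 window held 31 CG, a number reached by 20.7% of the 35116 promoter windows of the table. The window of HOXA6, which had no read, held 29 CG (24.2% of windows hold as many). Used and unused neighbour thus had a similar CG content in these windows. In the annotation used for exons, however, HOXA6 begins at 27150603, HOXA7 at 27157936 and HOXA9 at 27175180. Those starts lie outside the windows shown, whereas that of HOXA2 (27102811) lies inside. Which starts were in use was not tested. HOXA9 had 22 CG (37.7%) and HOXA2 had 11 (54.7%). Over the 27 HOX windows the median was 22 CG, over all windows 14, and over the 6 windows of genes without a read 17. The motif TATAAA, searched on both strands, was in 5 of 27 HOX windows (18.5%) and in 11.5% of all windows. In HOXA9 it began at base 101 of the window, 150 bases before the start. These matches describe letters and not bound sites.

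In the HOXB cluster (chromosome 17, 48528526 to 48729178, minus strand, 201 kb) 2 of 10 genes were detected. HOXB7 (ENSG00000260027.5), the paralog of HOXA7, had 94 and 60 reads, 3.89 CPM (3.18 to 4.77) and 2.703 CPM (2.10 to 3.48). HOXB13 (ENSG00000159184.8), which stands alone 98.4 kb beyond HOXB9 and is known from the prostate and hindgut, had 102 and 98 reads, 4.23 CPM (3.48 to 5.13) and 4.41 CPM (3.62 to 5.38). Both genes had overlapping intervals, and HOXB13 was nearly level between the libraries. HOXB2, a hindbrain gene, fell just short with 9 and 21 reads (0.373 and 0.946 CPM). HOXB3 had 13 and 12 reads, HOXB4 14 and 5, HOXB9 0 and 3, and HOXB1, HOXB5, HOXB6 and HOXB8 none. HOXB7 was therefore flanked on both sides by genes without a read, HOXB6 and HOXB8, although its annotated span contains HOXB8 and HOXB9.

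The HOXC cluster (chromosome 12, 53938765 to 54056030, plus strand, 117 kb) had the most detected genes, 4 of 9, and only 1 gene without a read. HOXC13 (ENSG00000123364.5), a regulator of hair and nail keratins, had 175 and 180 reads, 7.25 CPM (6.25 to 8.41) and 8.11 CPM (7.01 to 9.38). HOXC9 (ENSG00000180806.5), a gene of the thoracic trunk, had 117 reads (4.85 CPM, 4.04 to 5.81) in replicate 1 and 74 reads (3.33 CPM, 2.66 to 4.18) in replicate 2. The intervals of HOXC13 overlapped widely and those of HOXC9 narrowly. HOXC10 (ENSG00000180818.5), which acts in the lumbar trunk and hindlimb, had 25 and 35 reads (1.04 and 1.58 CPM). HOXC6 (ENSG00000197757.8), a gene of the upper trunk, had 25 and 29 reads (1.04 and 1.31 CPM). The lower interval bounds of HOXC10 and HOXC6 in replicate 1 were both 0.702 CPM, so their detection rests on few reads.

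HOXC4, a gene of the neck region, had 19 reads (0.787 CPM, 0.504 to 1.23) in replicate 1 and 32 reads (1.44 CPM, 1.02 to 2.03) in replicate 2. HOXC8 had 17 and 14 reads, HOXC11 8 and 7, and HOXC12 20 and 15. HOXC5 had none in either library. HOXC4 and HOXC5 share 1 RefSeq window, chr12:54016638-54016937 on the plus strand. It is shown because the 2 genes with a common RefSeq start had 19 and 32 reads against 0.
HOXC4 and HOXC5: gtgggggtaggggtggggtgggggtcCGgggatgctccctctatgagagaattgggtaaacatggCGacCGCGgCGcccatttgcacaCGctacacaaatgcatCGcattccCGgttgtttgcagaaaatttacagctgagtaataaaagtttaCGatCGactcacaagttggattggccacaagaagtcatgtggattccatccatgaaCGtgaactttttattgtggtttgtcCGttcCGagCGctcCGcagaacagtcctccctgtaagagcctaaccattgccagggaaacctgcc
This window held 15 CG, a number reached by 48.9% of windows. The counts of the 2 genes differed although their RefSeq window is the same. In the annotation used for exons, however, HOXC4 begins at 54016931 and HOXC5 at 54032853. The start of HOXC5 in that annotation lies outside the window, so the counts do not compare genes with a common start there. The exons of HOXC5 are covered to 59.9% by other genes on the same strand, so its count is uncertain. HOXC5 was listed at 0 TPM in both libraries as well.

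The HOXD cluster (chromosome 2, 176092891 to 176190907, plus strand, 98.0 kb) was the lowest. Its 1 detected gene was HOXD9 (ENSG00000128709.13), a limb and trunk gene, with 33 reads (1.37 CPM, 0.974 to 1.92) in replicate 1 and 23 reads (1.04 CPM, 0.690 to 1.55) in replicate 2. Both lower bounds were under 1 CPM. HOXD1 had 20 and 15 reads (0.829 and 0.676 CPM), HOXD8 8 and 3, and HOXD3, HOXD4, HOXD10 and HOXD13 between 1 and 3 in each library. HOXD11 and HOXD12, which pattern the forearm and digits, had none. HOXD13, the most posterior gene of the cluster and a paralog of the detected HOXB13 and HOXC13, had a single read in each library.

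Levels of different genes were compared per length, as RPKM over merged exons. Among the detected genes named here HOXA7 was highest, at 6.53 and 5.59 RPKM (mean 6.06 ± 0.667, SD, n = 2). Both values were above those of the next one named. This was HOXC13 at 3.17 ± 0.251 RPKM, then HOXC9 at 2.44 ± 0.637, HOXB7 at 2.16 ± 0.551 and HOXA9 at 1.71 ± 0.131 (SD, n = 2 for each). The ranges of HOXC9 and HOXB7 overlapped, as did those of HOXB7 and HOXA9. HOXB13 stood below them at 1.25 ± 0.0385 RPKM. HOXD9 (0.643 ± 0.125 RPKM) and HOXC10 (0.560 ± 0.164 RPKM) overlapped, and HOXC6 was last of the detected genes at 0.331 ± 0.0541 RPKM. Per length HOXC4 (0.41 RPKM), HOXD1 (0.38 RPKM) and HOXC8 (0.35 RPKM), which missed the CPM threshold in 1 or both libraries, had means above that of HOXC6.

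By TPM (transcripts per 1000000), the other deposited measure, HOXA7 again led the named genes, with 10.2 ± 0.801 TPM (SD, n = 2). HOXA9 stood below HOXC13, HOXC9 and HOXB7 by mean RPKM and above them by mean TPM, at 7.15 ± 0.743 TPM (SD, n = 2). HOXA7 was middling among all genes, as number 7410 of 19831 protein-coding genes by mean TPM. HOXC6, with 0.970 ± 0.057 TPM, was below 1 TPM, and 9 HOX genes reached a summed 1 TPM in both libraries, as did 59.7% of protein-coding genes.

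**Figure D2:**
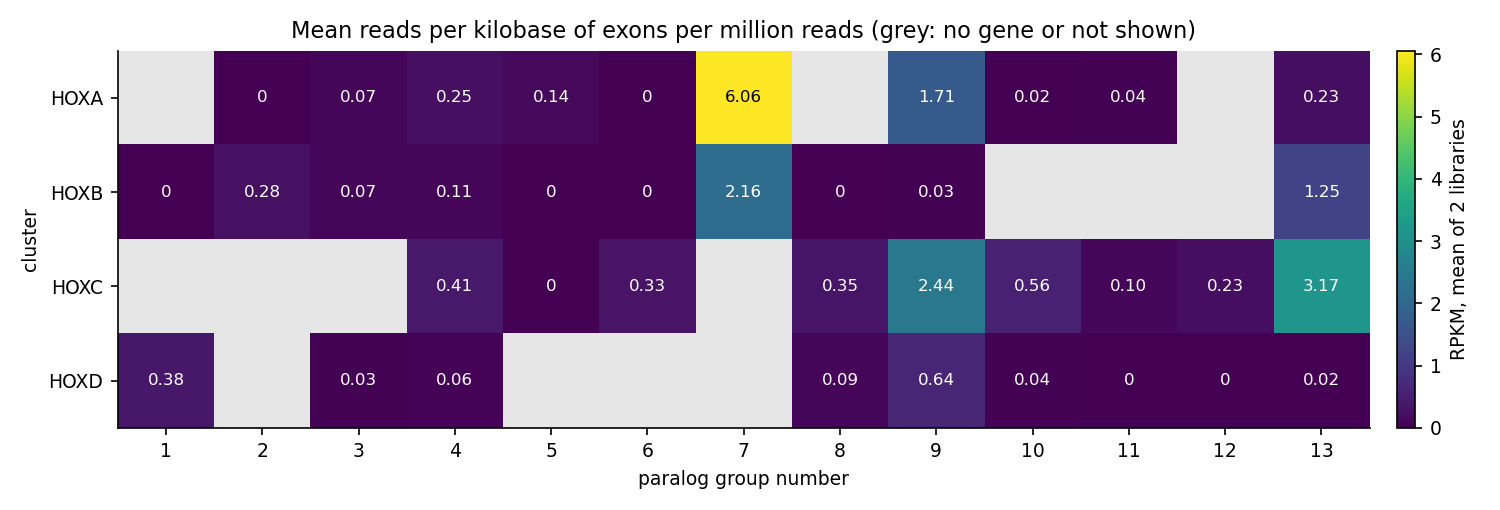
Mean RPKM over 2 libraries of the HOX genes described here, with clusters as rows and paralog group numbers as columns. Colour and printed value give the level and grey marks places without a gene or not shown; HOXA7 (6.06) is the brightest cell, and high cells stand between cells at or near 0.

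The 4 clusters took unequal parts of the HOX reads, in the same order in both libraries. HOXA took 55.3% (95% Wilson interval, 52.8 to 57.7) and 56.4% (53.9 to 59.0). HOXC took 25.7% (23.6 to 27.9) and 26.5% (24.3 to 28.8), HOXB 14.7% (13.03 to 16.5) and 13.6% (11.98 to 15.5), and HOXD 4.31% (3.41 to 5.42) and 3.43% (2.61 to 4.49). No intervals of different clusters overlapped. In CPM the clusters summed to 36.6 ± 0.641 (HOXA), 17.1 ± 0.402 (HOXC), 9.29 ± 0.458 (HOXB) and 2.53 ± 0.399 (HOXD; SD, n = 2 for each). The order is not an order of typical genes. The median HOXC gene was at 0.293 and 0.369 RPKM, above the median HOXA gene at 0.0971 and 0.185 RPKM. HOXA7 alone held 43.5% of the HOXA reads in replicate 1, with 380 of 873 reads. In replicate 2 its part was smaller, with 299 of 823 reads. In the other clusters 1 gene held 43.1% to 49.2% of the reads: HOXC13, HOXB13 and HOXD9.

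**Figure D3:**
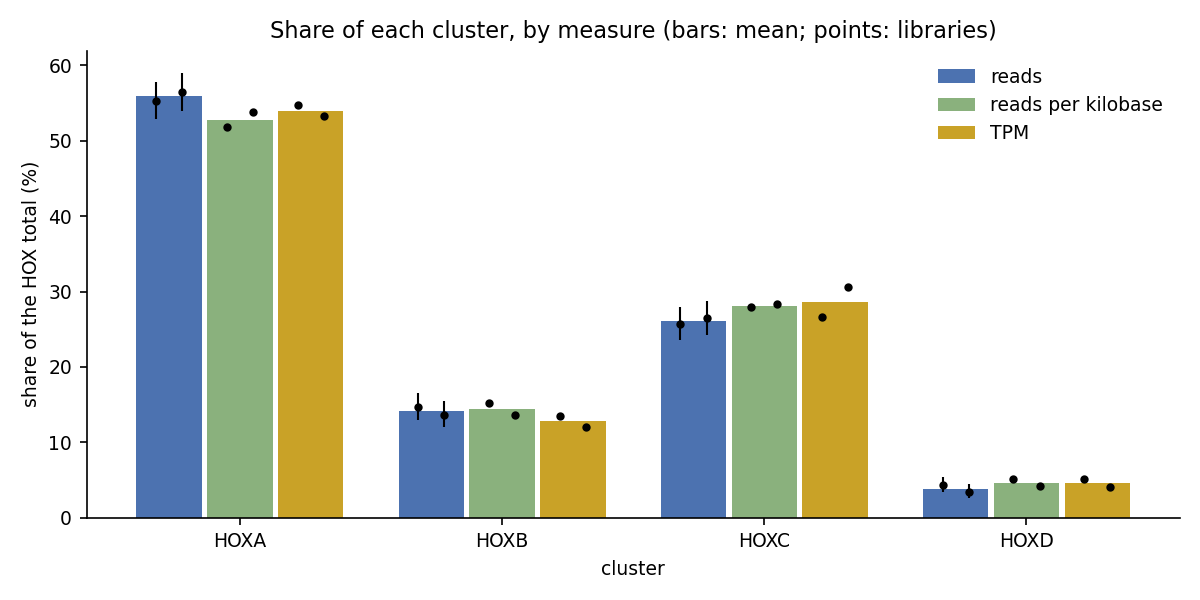
Share of the HOX total in each cluster (vertical, %), as reads, as reads per kilobase of exons and as TPM. Bars are means of 2 libraries, points are the libraries and lines on the reads are 95% Wilson intervals; HOXA holds from 52.8% to 55.9% of the total by each measure and HOXD from 3.87% to 4.68%.

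Position within the clusters was compared between central genes (paralog groups 4 to 8) and posterior genes (9 to 13). Of 15 central genes 3 were detected and of 16 posterior genes 6. Central genes held 36.1% and 31.8% of HOX reads, and HOXA7 made up 66.7% and 64.4% of these. Posterior genes held 39.6% and 40.9%, spread over more genes, with HOXC13 as the main one at 28.0% and 30.2% of posterior reads. Across these bands the level did not fall or climb steadily. It stood high at groups 7 and 9, and at group 13 in HOXB and HOXC.

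By paralog group, group 7 had both of its members detected (HOXA7 and HOXB7) with 30.02% and 24.62% of HOX reads. Group 9 had 3 of 4 members detected (HOXA9, HOXC9 and HOXD9), with HOXB9 at 0 and 3 reads, and held 16.97% and 15.2%. Group 13 had 2 of 4 (HOXB13 and HOXC13) and held 18.7% and 21.6%. No member of groups 2, 3, 4, 5, 8, 11 and 12 was detected. Of 35 pairs of neighbouring HOX genes, 2 had both genes detected (HOXA7 with HOXA9, and HOXC9 with HOXC10), 13 had 1 and 20 had neither. With 10 of 39 genes detected, most pairs would lack a detected gene or hold 1 wherever those genes lay. The pair counts thus show no pattern of spacing by themselves, and spacing was not tested.

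The clusters also hold non-coding genes, among them antisense genes, microRNA genes and other short RNA genes. Of 55 non-coding genes placed within the clusters, 1 was detected, a share near the 3.01% of all non-coding genes. All 55 together had 87 reads in replicate 1 and 114 in replicate 2. Of the 55, 34 had no read, many of them microRNA genes or other short RNA genes. The detected one was HAGLR, antisense to HOXD1 and HOXD3, with 32 and 23 reads (1.33 and 1.04 CPM). HOTAIR, an RNA from the HOXC cluster known to work with Polycomb proteins, had 1 and 5 reads. HOTTIP, made beside HOXA13, had 0 and 1 reads, and HOTAIRM1, of the HOXA cluster, had 11 and 8. By TPM HOTAIRM1 stood higher, at 4.53 and 4.16. Its reads fell over 4-fold short of those predicted from TPM and transcript length, with log2 ratios of -2.14 and -2.32. The measures thus disagree on its level. LINC03057, between HOXB9 and HOXB13, had 9 and 25 reads. HOXC13-AS, which reaches beyond the cluster limits and was named after its values were seen, had 35 and 51 reads (1.45 and 2.30 CPM) and overlaps 7.10% of the exons of HOXC13 on the opposite strand. The genes of the cluster microRNAs MIR10A, MIR10B, MIR196A2, MIR196B, MIR615, MIR3185 and MIR7704 had no read and MIR196A1 had 0 and 1; libraries of polyadenylated RNA do not measure mature microRNAs.

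Of the 16 protein-coding genes that are the 2 nearest on each side of each cluster, 13 were detected, beside 61.7% of all protein-coding genes. EVX1, a homeobox gene 42.6 kb beyond HOXA13, had 4.89 and 6.31 CPM. EVX2, which has the same place beside HOXD13 at 8.98 kb, had no read. MTX2, a mitochondrial import gene beside HOXD1, was at 44.7 and 48.7 CPM, and CBX5, which encodes a heterochromatin protein beyond HOXC4, at 118 and 105 CPM. Besides EVX2, SKAP1 (0.249 and 0.180 CPM) and TTLL6 (0.953 and 0.631 CPM), both beside HOXB, were below the threshold.

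The replicates were compared gene by gene to see how firmly each HOX level is fixed. Such a test compares 2 libraries and not conditions. Of the 39 HOX genes, 16 passed the filter on low counts, and 23 did not. Of the 16, 1 differed in edgeR's two-sided exact binomial test after Benjamini-Hochberg adjustment (6.25%), against 13.1% of 15299 genes tested and 6.49% for genes higher in replicate 2. That gene was HOXA13, higher in replicate 2 by 0.59 on the log2(CPM + 1) scale, which understates low genes (adjusted p = 0.0478, exact binomial test). With every gene that had a read in the test, its adjusted p was 0.0805 by the same exact test. Unadjusted p-values were under 0.05 for 4 of the 16 HOX genes, against 24.2% of all genes tested. Besides HOXA13 these were HOXC4, higher in replicate 2 by 0.45, and HOXC9 and HOXB7, at -0.43 and -0.40 (log2, replicate 2 minus replicate 1). Their adjusted p-values in the exact binomial test were 0.167, 0.0859 and 0.147. The median log2 difference of the 16 was 0.03 and that of all genes tested -0.0030, and the intervals of the libraries overlapped for all 39 HOX genes.

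The transcript table held 107 HOX transcripts, of which 33 were above 0 in both libraries, 16 in 1 library and 58 in neither. HOXA7 was carried by 1 transcript, HOXA7-201, with 98.7% and 93.2% of its TPM, and HOXB7 by HOXB7-201 with 100% in both libraries. HOXB13 and HOXC13 have a single matched transcript. Among 7 genes with a summed TPM of at least 1 and more than 1 transcript, the top transcript differed between the libraries in 5, and over all such genes it differed in 11.7%. That share was not matched to the HOX genes in level, so the 2 shares cannot be compared directly. Few reads lie behind some of the 5: HOXA4 had 8 and 12 and HOXC10 25 and 35. In HOXA9 the transcript HOXA9-206, annotated as processed and without a coding sequence, had 40.9% of TPM in replicate 1 and 0% in replicate 2, where the coding HOXA9-201 had 75.7%. HOXC9-201 went from 62.4% to 46.7%, HOXC10-201 from 58.7% to 34.1% and HOXA4-203 from 74.1% to 31.5%. Among these 7 genes the leading transcript was thus the same in both replicates for HOXA7 and HOXB7 only, and TPM carries no depth from which to give an interval.

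HOX genes overlap one another and their antisense genes, so the reads counted per gene were set against the number predicted from TPM and transcript length. Exons of 18 HOX genes overlap another gene on the same strand and exons of 19 overlap one on the opposite strand. For the 9 HOX genes with a summed TPM of at least 1, the median log2 ratio of counted to predicted reads was -0.07 in replicate 1 and -0.08 in replicate 2, and over 12626 genes it was 0.12 in both. HOXA4, a gene of the neck region, had 8 and 12 reads where 40.9 and 57.0 were predicted, a log2 ratio of -2.35 and -2.25. It was the 1 HOX gene of 9 that fell over 4-fold short of the prediction in both libraries, as 6.18% of 12984 genes did. Of the HOXA4 exons, 31.0% overlap an unnamed gene (ENSG00000273433) on the same strand and 16.3% overlap genes on the opposite strand. By summed TPM HOXA4 (2.14 and 2.53) would count as detected, and by reads it does not.

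HOXA9 counted fewer reads than predicted, by log2 ratios of -0.62 and -0.52, and HOXD11 without a read was listed at 0.143 and 0.310 TPM. Its exons overlap those of HOXD10 over 21.4% of their length. In HOXA7, 62.5% of the exons overlap the antisense gene HOXA-AS3, which had 0 and 1 reads. The ratios of HOXA7 were 0.13 and 0.12, near the median of 0.12 over all genes compared. HOXD4 and HOXD3 are covered to 80.5% and 62.2% by another gene on the same strand, so their low counts are uncertain. Their predicted reads were low as well. HOXD4 had 1.56 and 4.77 predicted where 1 and 3 were counted, and HOXD3 had 2.38 and 1.90 where 3 and 2 were counted. The role of overlap in these differences was not tested.

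**Figure D4:**
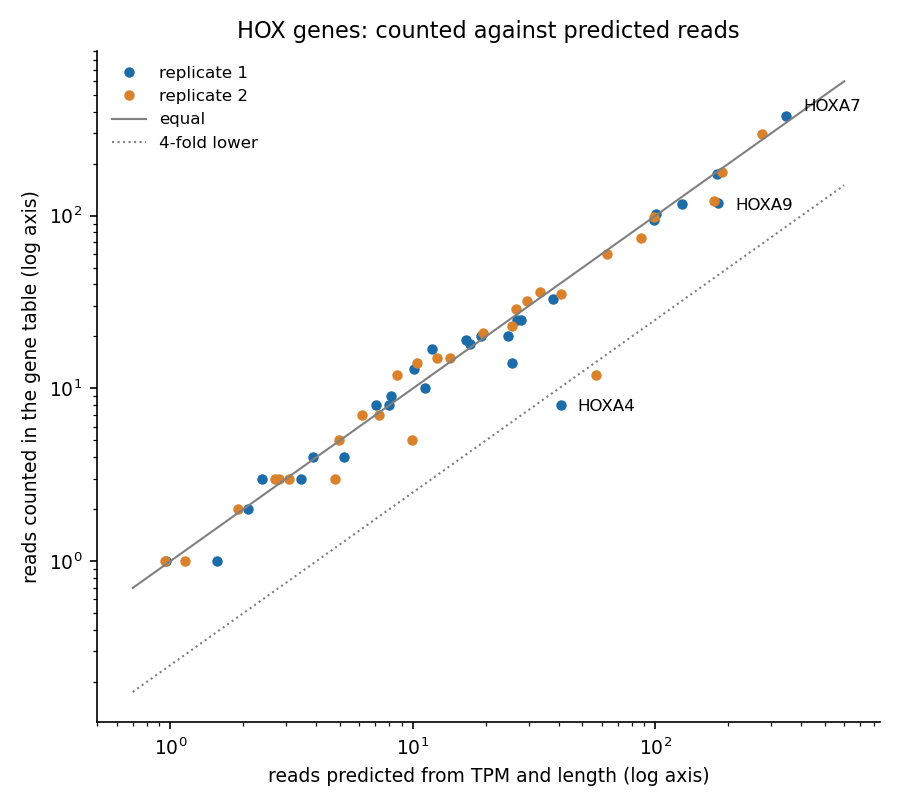
Reads counted in the gene table (vertical, log axis) against reads predicted from TPM and transcript length (horizontal, log axis) for the HOX genes described here that were above 0 in both measures, with 1 colour per library. The solid line is equality and the dotted line a 4-fold lower count; HOXA4, with 8 and 12 reads, is the gene under the dotted line in both libraries.

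HOX proteins bind DNA together with TALE homeodomain partners of the PBX, MEIS and PKNOX families, and of 9 such TALE genes 7 were detected, where 61.7% of protein-coding genes were. In TPM, PBX2 was at 73.9 and 71.5, MEIS3 at 44.0 and 42.5, PBX3 at 20.5 and 22.4 and PKNOX1 at 11.4 and 12.9. PBX4 and MEIS1 were lower, the latter at 2.84 and 3.70 TPM, and MEIS2 and PKNOX2 were below 1 CPM. The 4 named first were each above HOXA7 in TPM in both libraries. By RPKM this held for PBX2, MEIS3 and PBX3 only. PKNOX1, at 4.02 and 4.07 RPKM, was below HOXA7 at 6.53 and 5.59 RPKM. The cofactor list had a median of 4.02 and 4.07 RPKM, against 1.30 and 1.29 RPKM for protein-coding genes.

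Of 13 homeobox genes related to HOX genes or linked to them 4 were detected (61.7% of protein-coding genes). CDX1, of the caudal family that acts upstream of trunk HOX genes, had 12.6 and 8.02 TPM. MNX1, a motor neuron and pancreas gene, had 7.49 and 6.09 TPM, GBX2, a hindbrain boundary gene, 5.10 and 4.78 TPM and EVX1 2.52 and 3.71 TPM. CDX2 and CDX4 were below the threshold, with 9 and 5 and with 1 and 3 reads. EVX2, MEOX2, GSX1 and GSX2 had no read. The median of this list was 0.0282 and 0.0546 RPKM, below that of the HOX genes.

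Of 16 genes of the retinoic acid pathway 9 were detected, a share near the 61.7% of protein-coding genes. On the synthesis side ALDH1A3, which makes retinoic acid, was at 16.8 and 16.3 TPM and RDH10, which makes its precursor, at 5.92 and 5.76 TPM, while ALDH1A1 and ALDH1A2 were below 1 CPM. CRABP2, which carries retinoic acid to the nucleus, was at 39.8 and 44.9 TPM, and DHRS3, which turns the precursor back, at 29.2 and 34.0 TPM. The receptors RARA, RARB, RARG, RXRA and RXRB were all detected, and RXRG had no read. CYP26A1, CYP26B1 and CYP26C1, which degrade retinoic acid and of which the first is a direct target, had 3 to 7 reads per library. All 15 chromatin regulators of HOX genes in the list were detected (61.7% of protein-coding genes). Of the Polycomb group, SUZ12 was at 19.7 and 19.9 TPM, EZH2 at 7.29 and 8.51 TPM and RNF2 at 66.7 and 63.2 TPM. On the activating side, MEN1 was at 33.2 and 29.9 TPM and KMT2A at 0.539 and 0.870 TPM. By reads KMT2A was well above the detection threshold, at 17.1 and 13.3 CPM.

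**Figure D5:**
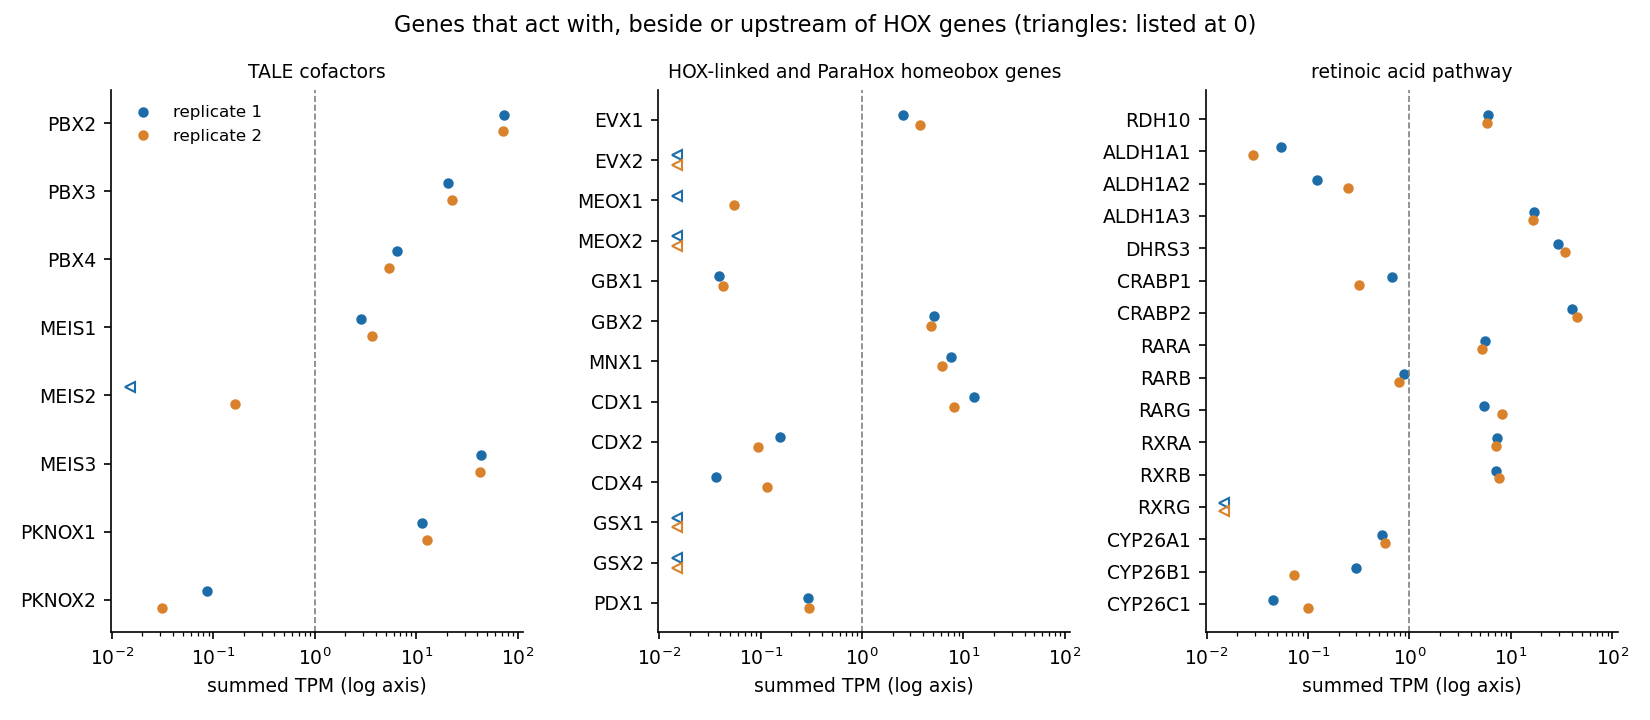
Summed TPM (horizontal, log axis) of the named TALE cofactors, HOX-linked and ParaHox homeobox genes and retinoic acid pathway genes, with 1 row per gene and 1 point per library. Open triangles are genes listed at 0 and the dashed line is 1 TPM; PBX2 reaches 73.9 TPM, and EVX2, MEOX2, GSX1, GSX2 and RXRG are listed at 0 in both libraries.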

How the data were processed

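The 2 deposited tables of 1 group of 2 libraries were used. Per the submitters' processing notes, the tools were Trim Galore 0.6.10, STAR 2.7.11a, Salmon 1.10.2 and DESeq2 on GRCh38. Their settings and the strand option of the counting are not given in the sources used here. The first deposited table holds TPM for 251955 transcripts. The second holds a normalised signal per gene, which the authors made from read counts divided by 1 factor per library. Dividing by the value of 1 read (1.02 and 1.12) gave whole reads for 100% of values, within 0.01 reads, and these were used. No column was left unused. The libraries of replicates 1 and 2 are named DDX53_I and DDX53_III, and whether another library was made between them is not known here.

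CPM is reads per 1000000 reads in genes and RPKM divides it by the kilobases of merged exons in GENCODE 29. TPM was summed per gene over the 201667 transcripts that GENCODE 29 holds, which carried 94.8% of TPM. The other transcripts were not used for genes. Predicted reads are TPM times transcript length, scaled to the library. Shares and CPM have 95% Wilson intervals. The libraries were compared with edgeR 4.0.16 (binomTest, TMM, filterByExpr, Benjamini-Hochberg over all genes tested, threshold 0.05), as recovered reads allow a count test. The calculation was tested on simulated data. Alternatives were other thresholds, scalings (DESeq2 1.42.0 size factors, total reads), filters, units and each library alone. Given in full were HOX genes with at least 1 CPM in 1 or both libraries. The members of 7 lists, the non-coding genes within the clusters and the 2 nearest genes on each side completed the named genes. Some members of these groups are counted but not reported here. The HOX genes and the lists were chosen with earlier results of these data known.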

Additional observations from a re-analysis of the deposited data

How the results depend on the processing

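The number of detected HOX genes, 10, became 23 at 0.1 CPM and 3 at 5 CPM, was 9 by TPM, and was 7 where the lower Wilson bound had to reach 1 CPM, an alternative chosen after seeing the data. With each library alone it was 10 to 12. The share of all protein-coding genes was not computed for the Wilson rule or for each library alone. The share of HOX reads in HOXA (55.9%) became 52.8% per kilobase and 54.0% by TPM. HOXB (14.2%) became 12.8% by TPM, HOXC (26.1%) 28.1% and 28.6%, and HOXD (3.87%) 4.68% and 4.65%. The order of the clusters was the same in each. With each library alone the shares ranged from 55.3% to 56.4%, 13.6% to 14.7%, 25.7% to 26.5% and 3.43% to 4.31%, and the summed CPM from 36.2 to 37.1, 8.96 to 9.61, 16.8 to 17.4 and 2.25 to 2.82 (HOXA, HOXB, HOXC, HOXD).

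The 1 HOX gene that differed between the libraries, HOXA13, gave 0 with every gene that had a read in edgeR's test and 4 by unadjusted p. The first setting tests more genes. The median share of the top transcript (68.1%, 7 genes) was 94.8% over 16 genes at 0.1 TPM and 64.8% over 4 genes at 5 TPM, and 67.7% to 68.5% with each library alone. The median log2 ratio of counted to predicted reads (-0.07) was -6.06e-05 at 0.1 TPM and -0.030 at 5 TPM, and -0.08 to -0.07 with each library alone. The other settings, DESeq2 or TMM scaling among them, moved no count by over 1.5 times. No paired analysis was possible because all libraries are of 1 group. Leaving out a library leaves no comparison between libraries, so that was not run. Depth limits genes near the threshold: 1 CPM is about 24 and 22 reads.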
